A study of Caenorhabditis elegans with 2 samples.

Results

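The genes described here encode translation initiation and elongation factors of Caenorhabditis elegans. They were chosen by a rule on names alone, with earlier results of these data known. Members are the protein-coding genes of the Ensembl WBcel235 annotation whose symbol begins with eif, eef, ife, ifg or iff and a hyphen. The rule found 39 of 19973 protein-coding genes on the nuclear chromosomes, 33 with initiation factor symbols and 6 with elongation factor symbols. Binding of LIN-35, the worm retinoblastoma-family pocket protein, was mapped in whole L1 larvae by chromatin immunoprecipitation and sequencing (ChIP-seq), in 1 group of 2 biological replicates. Both came from strain YL398, males and females pooled. It carries the unc-119(ed3) allele and the integrated transgene vrIs55, in which the gut ges-1 promoter drives LIN-35 tagged with GFP and FLAG, ahead of a lin-35 3'UTR and beside an unc-119 (+) copy. In the labels the antibody is listed against LIN-35 in one field and the ChIP against its GFP fusion in another, so binding of the fusion in gut cells and of LIN-35 in other cells cannot be told apart in these whole-animal libraries. Peak lists hold positions and not expression, so the tissue could not be checked against marker genes. No other genotype or stage was compared, so the values below are described without a test between groups.

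Translation begins when eIF2 brings the initiator tRNA to the small ribosomal subunit, eIF3 and eIF1 hold that subunit ready for scanning, and eIF4E in the eIF4F complex binds the mRNA cap. eIF2B recharges eIF2 with GTP, and eEF1A, its exchange factors and eEF2 then carry out each step of elongation. LIN-35 acts with E2F-DP proteins in the DREAM complex, best known for repression of cell cycle genes. Many worm genes lie head to head with a neighbour or follow another gene in an operon, and many mRNAs are trans-spliced, so an annotated start may differ from the place where transcription begins.

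Short stretches near the summits of 8 member peaks that hold such a word are shown first, because DREAM is known to be recruited through 2 kinds of DNA word, E2F-like and CHR-like. The E2F-like family searched held the word TTCCCGC, besides which the word TTGGCGC, the related word TTCGCGC and also the word TTGCCGC were counted. The CHR-like family, named after the cell cycle genes homology region, held the word TTTGAA and the related word TTCGAA. Both strands were read within 75 bp of the summit, each family was counted separately, and words of the 2 families were allowed to overlap. Each line gives 30 bases of the RefSeq WBcel235 genome, 5′ to 3′ on the strand of the gene, with the word nearest the summit in capitals. The lines are in order of falling signal. The peak of eef-2, the strongest of the members, holds words of both families too, and its sequence is not shown here.
eef-1A.1 (chrIII:6972122-6972151, minus strand): ccgccgagagtgTTTGAAatggtgtacggt
eef-1G (chrV:10965610-10965639, plus strand): aaacctgattcTTGGCGCcgaaatgcggta
eif-3.B (chrII:14795127-14795156, plus strand): aaattatctctaTTTGAAattccgcgcaaa
ife-3 (chrV:8206-8235, minus strand): gtgtgtctggtgTTTGAAtttcaggattcg
eef-1B.2 (chrIV:15037114-15037143, plus strand): ttcgcttcaaatTTTGAActtccctccatt
eef-1B.1 (chrIII:7973362-7973391, minus strand): gcgctatgctcgTTTGAAggcgcatggggt
iff-1 (chrIII:9747386-9747415, minus strand): taagcgtgtaatTTTGAAtcatttccactg
eef-1A.2 (chrX:7823264-7823293, plus strand): attacgcaaaatTTCGAAactcggagagtg

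The next lines show the E2F-like words of 5 genes, a set picked after the values were seen, so that this family can be read beside its count. In these lines the capitals mark the E2F-like word nearest the summit, and a word that begins with GCGC is read on the opposite strand.
eif-3.D (chrIII:8971814-8971843, minus strand): aagtggcgaatgTTGGCGCgtttcgtgtac
eif-2A (chrII:10416656-10416685, plus strand): ctggatacggtGCGCGAAattctgcatttc
eif-2Bdelta (chrV:9513771-9513800, plus strand): gcgcacataatGCGCCAAcagagattgctg
ife-3 (chrV:8192-8221, minus strand): tgaatttcaggaTTCGCGCctttctttcca
eef-1B.1 (chrIII:7973426-7973455, minus strand): ggagaaatgaaaGCGCGAAacttgggcgcc
A word in these lines is a match of letters, which shows neither a bound site nor a cause. An E2F-like word stood within 75 bp of the summit at 8 of 29 member peaks (27.6%), against 12.7% of all 6712 reproducible peaks and 15.3% of the 3252 distinct peaks that were the strongest of a promoter. In windows of the same size 500 bp to lower coordinates the shares were 3.45% for members and 5.30% for all peaks. A CHR-like word stood at 12 of 29 member peaks (41.4%), against 34.6% of all peaks and 39.4% of the promoter peaks. In the displaced windows it stood at 8 of 29 for members (27.6%) and at 46.0% for all peaks, a difference from the summit share that had opposite signs and was not tested. The members' share at the summit was near that of promoter peaks in general. Both families were found at 4 member peaks, those of eif-2A, ife-3, eef-1B.1 and eef-2, and at 6.38% of all peaks. The gut GATA word TGATAA was found at 1 member peak, that of eif-3.E, against 23.3% of all peaks and 19.1% of the promoter peaks. In the displaced windows it stood at 6 of 29 for members (20.7%) and at 14.9% for all peaks, which was not tested. Within 150 bp it was found at 8 members (27.6%), against 36.2% of all peaks and 32.9% of the promoter peaks, so the gap to the background was smaller in the wider window. None of the 3 families was found at 12 member peaks, among them those of the strongly bound iff-2 and eif-3.C, which says only that these letters are not in the window.

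LIN-35 peaks were present at the promoters of most of these genes. A reproducible peak is one that passed the authors' threshold on the irreproducible discovery rate, derived from both replicates. Such a peak need not stand in each replicate list, and those of eif-2A, eif-2D and eif-6 overlapped no replicate 2 peak. A gene was counted as bound where the summit of such a peak lay from 500 bp upstream to 200 bp downstream of one of its annotated transcript starts. This held for 29 of 39 members (74.4%), against a background of 19.8% of all protein-coding genes. No member had more than 1 such summit. The signal, the authors' own score of enrichment for each peak, had a median of 326 over the bound members and ran from 63.3 to 2363. Over all 3959 genes with a promoter peak the median was 141, so the members' median was higher. For all 29 the signal in the reproducible list equalled that in the pooled list, so it holds the reads of both replicates and is no separate measurement. Where both replicates had a summit, the member's rank in it lay nearer to that in replicate 1. At eif-2Balpha it was 726, against 680 in replicate 1 and 7862 in replicate 2. An order found in this list and in replicate 1 is therefore not 2 separate observations. The replicate lists had median signals of 13.8 and 3.63 over all their peaks, and sizes are therefore compared only within a list, with the rank beside them. Peaks ranked among the 1000 strongest were found at 15 of the 29 bound members (51.7%) and at 27.8% of all bound genes. Among the 100 strongest were 5 members (17.2% of those bound), eef-2, eif-3.C, iff-2, eef-1A.1 and eef-1G, against 3.06% of all bound genes.

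**Figure D1:**
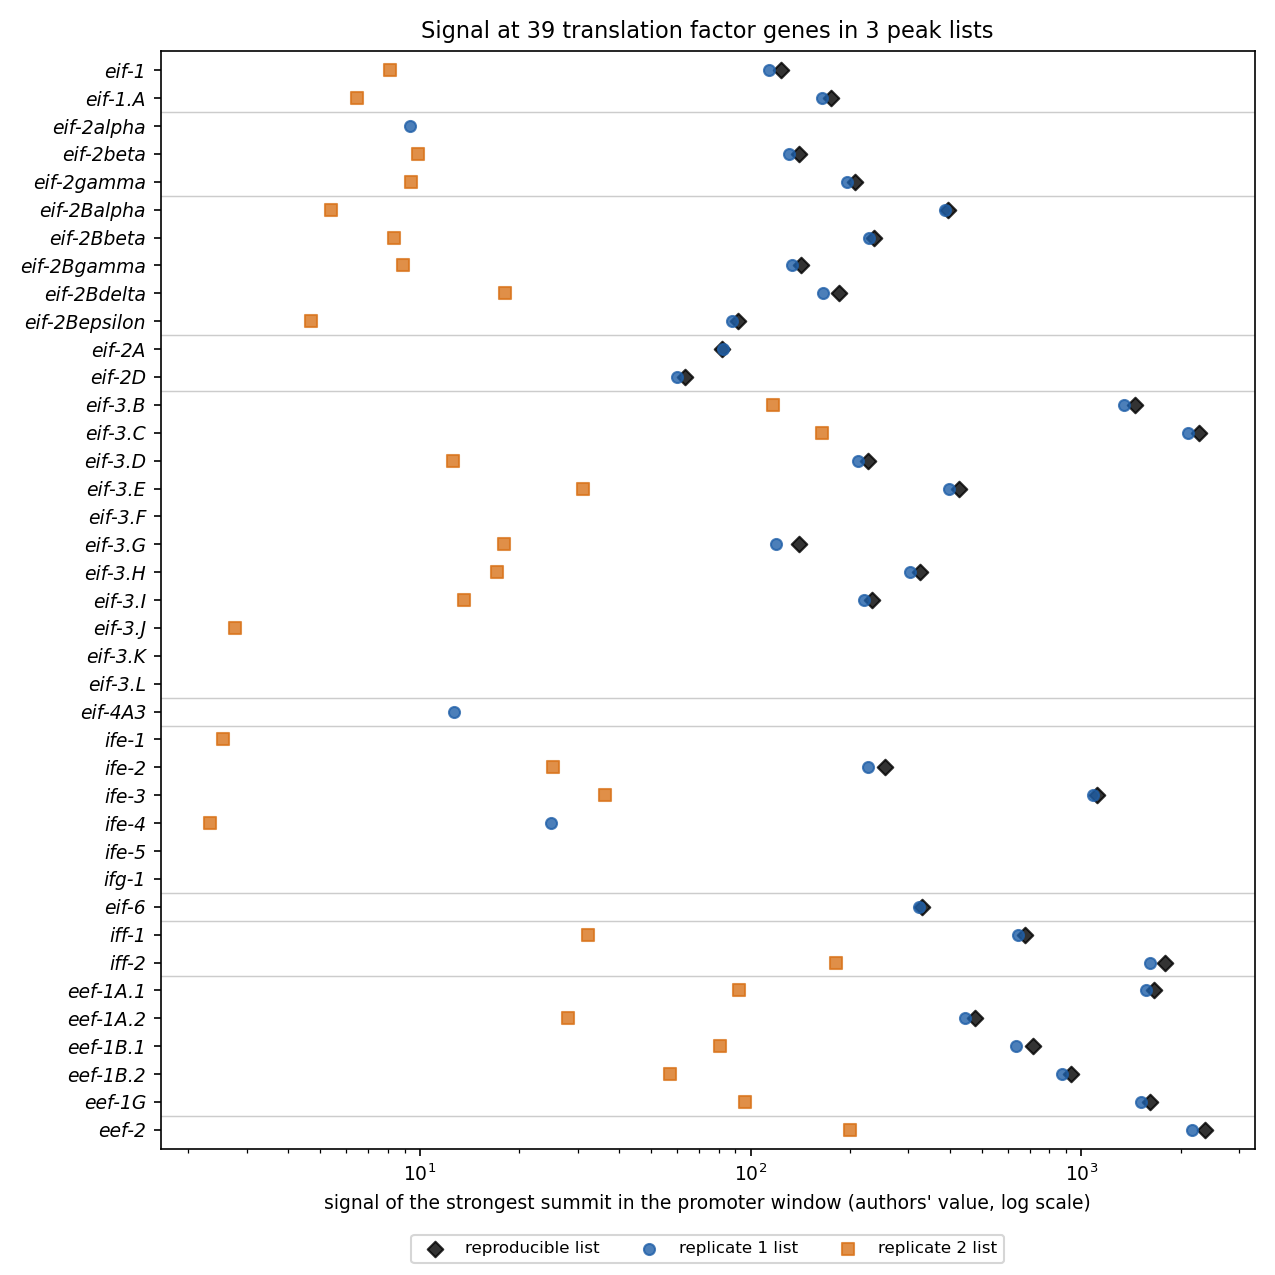
Signal of the strongest summit in the promoter window (log axis) for each of the 39 genes, in the reproducible list (black diamonds), the replicate 1 list (blue circles) and the replicate 2 list (orange squares); grey lines separate complexes, and a missing point means no summit in the window. Signal sizes are not comparable between lists. The 6 elongation factor genes all carry a point in each list, and eif-3.F, eif-3.K, eif-3.L, ife-5 and ifg-1 carry none.

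All 6 elongation factor genes were bound, with a median signal of 1274. The peaks of eef-2, eef-1A.1, eef-1G and eef-1B.1 were shared with a divergent neighbour, as described below, so they cannot be assigned to the elongation factor gene alone. The gene eef-2 encodes the GTPase that moves the ribosome along the mRNA, and it had the strongest peak of the members (chromosome I, 9163343 to 9163715). Its signal was 2363 in the reproducible list (rank 25 of 6712), 2163 in the replicate 1 list (rank 27 of 30000) and 200 in the replicate 2 list (rank 15 of 26341). It therefore stood near the top of each list, and its summit lay 12 bp upstream of the start in all 3.

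The paralogs that encode eEF1A, the factor that delivers aminoacyl-tRNAs, were both bound. At eef-1A.1 (peak on chromosome III, 6971929 to 6972257) the signal was 1657 in the reproducible list, 1571 in replicate 1 (rank 86) and 92.5 in replicate 2 (rank 137). At eef-1A.2 (chromosome X, 7823145 to 7823485) it was 478, with 444 in replicate 1 (rank 599) and 28 in replicate 2 (rank 936). The first of these paralogs thus had the higher signal in every list. Both summits lay far from the annotated start, 394 bp upstream at eef-1A.1 and 358 bp at eef-1A.2.

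Genes for the exchange factor of eEF1A were bound as well. The gene eef-1G, for its gamma subunit, had a signal of 1615 (chromosome V, 10965512 to 10965853), with 1518 in replicate 1 (rank 95) and 96.1 in replicate 2 (rank 132). At eef-1B.2 (chromosome IV, 15037012 to 15037319) the signal was 933, with 876 in replicate 1 (rank 275) and 57.2 in replicate 2 (rank 312). At eef-1B.1 (chromosome III, 7973238 to 7973555) it was 712, with 633 in replicate 1 (rank 418) and 80.6 in replicate 2 (rank 171). Of the 6 elongation factor genes, eef-2 and eef-1B.1 ranked higher in replicate 2 than in replicate 1, and the other 4 ranked lower. The summit at eef-1B.1 lay at the start itself, 1 bp upstream in the reproducible list.

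Among initiation factor genes, 23 of 33 were bound (69.7%), against 19.8% of all protein-coding genes, with a median signal of 232. Of the 11 eIF3 subunit genes found by the rule, 7 were bound, and eif-3.F, eif-3.J, eif-3.K and eif-3.L were not. The strongest were eif-3.C (chromosome I, 9979739 to 9980089), with a signal of 2262, and eif-3.B (chromosome II, 14794909 to 14795341), with 1456. The replicate 1 and 2 signals were 2096 (rank 31) and 164 (rank 30) at eif-3.C. They were 1344 (rank 130) and 117 (rank 81) at eif-3.B. Both encode large subunits of the conserved core of eIF3, to which the products of eif-3.G and eif-3.I also belong. The gene eif-3.E followed with 427 (397 in replicate 1 and 31.1 in replicate 2), and eif-3.H with 326 (303 and 17.1). Lower values were found at eif-3.I with 232 (220 and 13.6), at eif-3.D with 226 (211 and 12.6) and at eif-3.G with 140 (119 and 18). The genes eif-3.C and eif-3.B thus stood above the other 5 in every list. The other core subunit genes, eif-3.I and eif-3.G, were among the lower values in the reproducible list. In replicate 2 the order differed, with eif-3.G (18) above eif-3.H (17.1). Of the 4 unbound eIF3 genes, eif-3.J had a summit of signal 2.76 in replicate 2 (rank 18517), and eif-3.F, eif-3.K and eif-3.L had none in either replicate list.

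All 5 genes of eIF2B, the exchange factor that is inhibited when eIF2 is phosphorylated under stress, were bound. The median signal was 185, against 141 over all bound genes, and the value at eif-2Bepsilon was below both. At eif-2Bbeta and eif-2Bepsilon the summit was shared with a neighbour whose start was nearer. At eif-2Balpha the signal was 395, with 387 in replicate 1 (rank 680) and 5.38 in replicate 2 (rank 7862), the widest gap in rank among the 5. The values were 236 at eif-2Bbeta (228 and 8.35 in the replicates) and 185 at eif-2Bdelta (165 and 18.1). The genes of the gamma and epsilon subunits were lower, with 142 at eif-2Bgamma (133 and 8.92) and 91.4 at eif-2Bepsilon (88.1 and 4.68). The order in replicate 2 was another one, with eif-2Bdelta highest. For eIF2 itself, eif-2gamma had a signal of 207 (196 and 9.38 in the replicates) and eif-2beta 140 (131 and 9.87). The gene of its regulatory alpha subunit, eif-2alpha, had no reproducible promoter peak. Its window held a summit with signal 9.32 in replicate 1 (rank 21138) and none in replicate 2.

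Of the genes for the cap-binding factor eIF4E and its scaffold, 2 of 6 were bound, against 19.8% of all genes. The worm has 5 genes for eIF4E by this symbol, ife-1 to ife-5, and 1 for the scaffold eIF4G, ifg-1. The gene ife-3 had a signal of 1113 in the reproducible list, 1083 in replicate 1 (rank 189) and 36.2 in replicate 2 (rank 632). The value at ife-2 was 254, with 227 in replicate 1 (rank 1186) and 25.2 in replicate 2 (rank 1101). Reproducible peaks were not found at ife-1, ife-4, ife-5 or ifg-1. In the replicate lists ife-4 had weak summits, 25 in replicate 1 and 2.33 in replicate 2, ife-1 had 2.54 in replicate 2, and ife-5 and ifg-1 had none. By signal in the reproducible list, the paralogs thus fell into a strongly bound gene, a moderately bound gene and 3 with at most weak summits in the replicate lists. In replicate 2 the ranks of ife-3 and ife-2 were nearer to each other than in replicate 1.

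Both genes for eIF5A, a factor named for initiation that also promotes elongation, were bound. At iff-2 (chromosome II, 8561264 to 8561611) the signal was 1790, with 1609 in replicate 1 (rank 77) and 181 in replicate 2 (rank 21). At iff-1 (chromosome III, 9747221 to 9747508) it was 675, with 641 (rank 410) and 32.3 (rank 757). As with eEF1A, the order of the paralogs was the same in every list. The remaining initiation factor genes were weaker. The scanning factor genes had 175 at eif-1.A (164 and 6.45 in the replicates) and 124 at eif-1 (114 and 8.13). The gene eif-6, whose product keeps the ribosomal subunits apart, had 329, with 323 in replicate 1 and no summit in replicate 2. The genes eif-2A and eif-2D, for factors of alternative initiation, had 81.7 (82.4 in replicate 1) and 63.3 (60 in replicate 1), likewise with no summit in replicate 2. The values at eif-2A and eif-2D were the lowest among the bound members. The gene eif-4A3, for a helicase of the exon junction complex, had no reproducible promoter peak, with a summit of 12.7 in replicate 1 (rank 16159) and none in replicate 2.

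All 29 bound members also had a summit in the promoter window in the replicate 1 list, and 26 had one in the replicate 2 list. These lists include background, and 38.2% and 35.6% of all protein-coding genes had a summit in the window in them. Among the 10 unbound members, 3 had a summit in the replicate 1 list, namely eif-2alpha, eif-4A3 and ife-4. In the replicate 2 list 3 had a summit, namely eif-3.J, ife-1 and ife-4, so only ife-4 was in both. The bound members without one in replicate 2 were eif-2A, eif-2D and eif-6, and their peaks did not overlap any replicate 2 peak. Of these, eif-6 ranked 814 in replicate 1, so its place in the reproducible list came with no replicate 2 summit beside it. Over the 26 bound members with a value in both lists, the replicate signals had a Spearman correlation of 0.870, and over all 3662 such bound genes of 0.739. These are descriptions across genes of a shared pair of libraries, and the genes were selected through the list derived from both replicates. All 29 bound members ranked among the 6712 strongest peaks of replicate 1, and 24 among those of replicate 2.

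**Figure D2:**
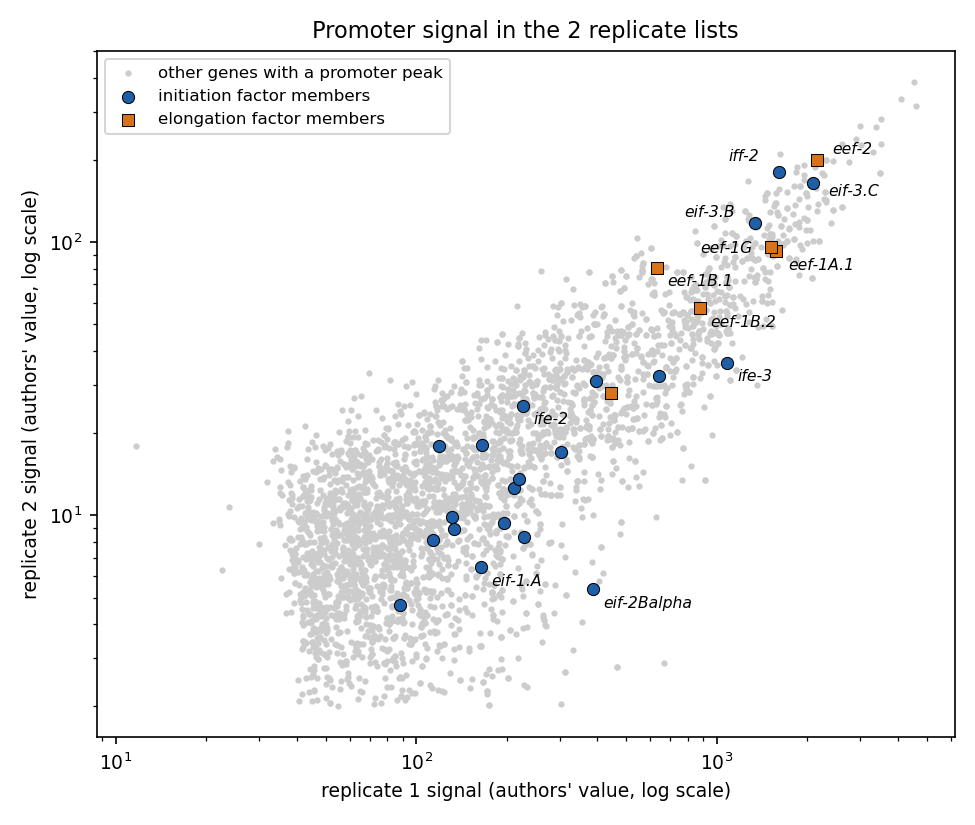
Signal of the strongest promoter summit in the replicate 1 list (horizontal, log axis) and the replicate 2 list (vertical, log axis) for genes with a reproducible promoter peak, with initiation factor members in blue, elongation factor members in orange and other genes in grey. The point of eif-2Balpha, at 387 and 5.38, lies far below the other members of similar replicate 1 signal.

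Of the 29 bound members, 13 (44.8%) shared their summit with the promoter window of another protein-coding gene, against 35.8% of all bound genes. In every case there was 1 such neighbour, on the opposite strand, and the summit lay upstream of both starts. The strongest shared peaks are described here in order of signal. That of eef-2 (2363) was also the promoter peak of clsp-1, the claspin gene of the replication fork, 253 bp upstream of its start. The eef-1A.1 summit (1657) lay 147 bp upstream of rfc-4, a clamp loader gene, and so nearer to that start than to its own. The eef-1G summit (1615) was 132 bp upstream of ctf-4, a replisome gene, and 48 bp upstream of eef-1G. The eef-1B.1 summit (712) was 1 bp upstream of its own start and 330 bp upstream of aco-2, a mitochondrial aconitase gene. The peak of iff-1 (675) was shared with cdk-1, the mitotic cyclin-dependent kinase gene, whose start was 111 bp away against 168 bp for iff-1.

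The other 8 shared peaks ran from 63.3 at eif-2D to 329 at eif-6. Their neighbours included pbs-2, a proteasome gene, at eif-6, vps-24, of the ESCRT machinery, at eif-1, and abtm-1, a mitochondrial transporter gene, at eif-3.I. In 8 of the 13 the neighbour's start was nearer than that of the member. For these genes the lists cannot tell which gene of the pair the binding concerns. The median signal of shared member peaks was 326 and that of the 16 unshared ones 324.5. Over all bound genes the corresponding medians were 227.7 and 109.8. The strongest unshared peaks were at eif-3.C, iff-2, eif-3.B, ife-3 and eef-1B.2.

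**Figure D3:**
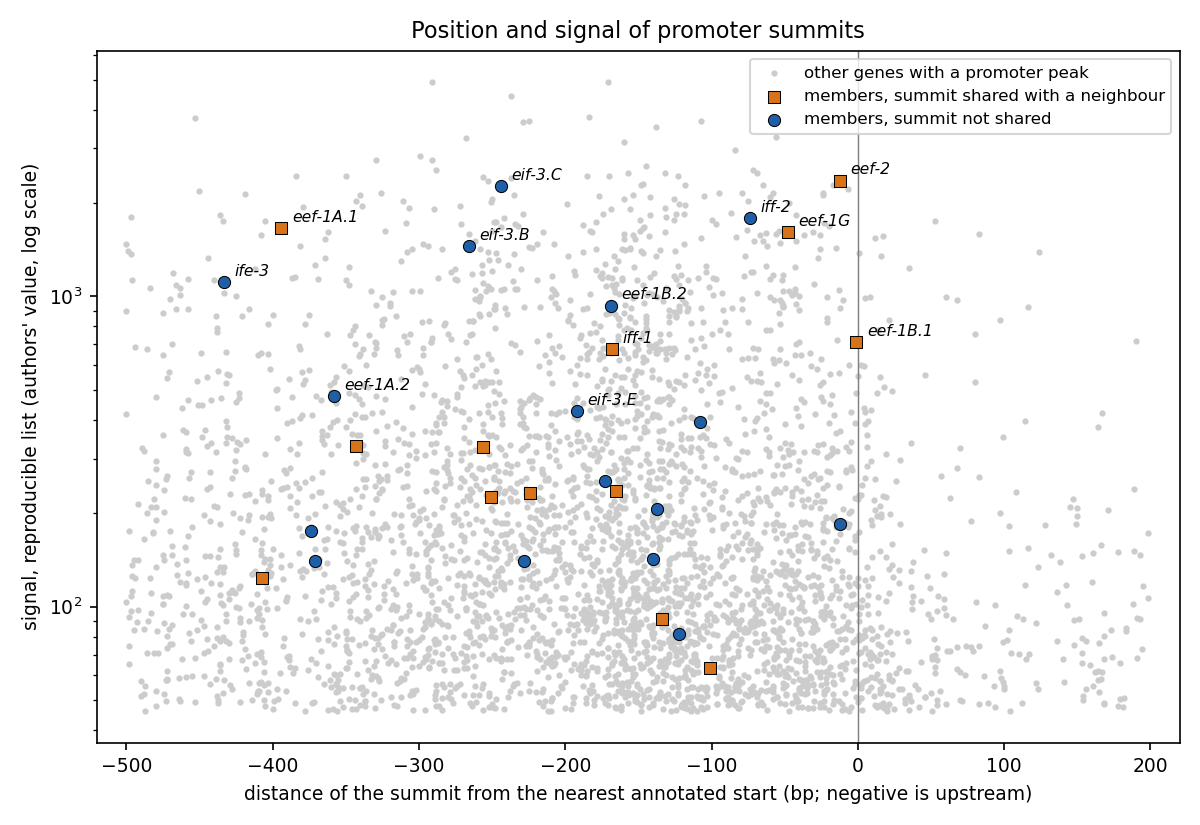
Distance of the strongest promoter summit from the nearest annotated start (horizontal, bp, negative is upstream) and its signal in the reproducible list (vertical, log axis), with members that share the summit in orange, members that do not in blue and other genes in grey. No member summit lies downstream of its start, and eef-1A.1, eef-1A.2 and ife-3 combine high signal with distances of 394, 358 and 433 bp.

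Summits lay a median of 173 bp upstream of the nearest start over the bound members (interquartile range 122 to 266, 29 genes). Over all bound genes the median was 163 bp (79 to 274), so the members were not set apart by position. The distance was over 250 bp at 10 members (34.5%) and at 30.1% of all bound genes. Those 10 included eef-1A.1, eef-1A.2, eif-3.B and ife-3, which are among the strongly bound, and eif-1, eif-1.A and eif-3.G, which are weaker.

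The surroundings of the 10 unbound genes differed. At eif-4A3 the nearest reproducible summit was 502 bp upstream, just past the window (signal 66.3), at ifg-1 it was 665 bp upstream (127) and at eif-3.J 944 bp upstream (249). The first of these summits lay in the promoter window of the divergent gene vps-20 and the second in that of M110.3, likewise on the opposite strand. At the other 7 the nearest summit was between 917 bp, at ife-1, and 16485 bp, at ife-5, away. For 3 of the 10, a gene on the same strand ended within 500 bp upstream. These were phb-1, 133 bp from eif-2alpha, wbp-2, 116 bp from eif-3.F, and Y57A10A.29, 65 bp from ife-5. The promoter of phb-1 was bound (signal 366), 1787 bp upstream of eif-2alpha, whereas wbp-2 and Y57A10A.29 had no promoter peak. Such a close gene on the same strand was also found at 4 of the 29 bound members. Reproducible summits inside the gene but outside the window were found at none of the unbound members.

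The count of bound members was set beside the background under each other peak set and rule. With a window of 1000 bp upstream it was 32 (background 24.1%), with 250 bp either side 19 (14.2%), and with each summit given only to the nearest start within 2000 bp 22 (22.6%). Among the 3356 strongest peaks it was 26 (12.7%), with the strongest 6712 peaks of replicate 1 alone 29 (19.8%), and with those of replicate 2 alone 24 (17.8%). The pooled relaxed list gave 32 (38.3%), the most upstream start of each gene 28 (18.4%), and the 4695 reproducible peaks that overlap both replicates' 6712 strongest, a set chosen after seeing the data, 24 (14.6%). The members' share thus exceeded the background under each of these settings, while the count itself was lowest in the narrow window. The 10 not found there were the genes with summits over 250 bp away, eef-1A.1 and eef-1A.2 among them. The 8 genes whose neighbour was nearer, among them eef-1A.1 and iff-1, lost their peak when only the nearest start counted, while eif-3.J gained one. With replicate 2 alone the 5 genes not found were eif-2Balpha, eif-2Bepsilon, eif-2A, eif-2D and eif-6, and with replicate 1 alone the 29 bound members were found again. The wider window added eif-3.J, eif-4A3 and ifg-1. Peaks were kept under all 10 settings by 12 members, namely eef-1B.1, eef-1B.2, eef-1G, eef-2, eif-2gamma, eif-2Bgamma, eif-2Bdelta, eif-3.C, eif-3.E, eif-3.I, ife-2 and iff-2.

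**Figure D4:**
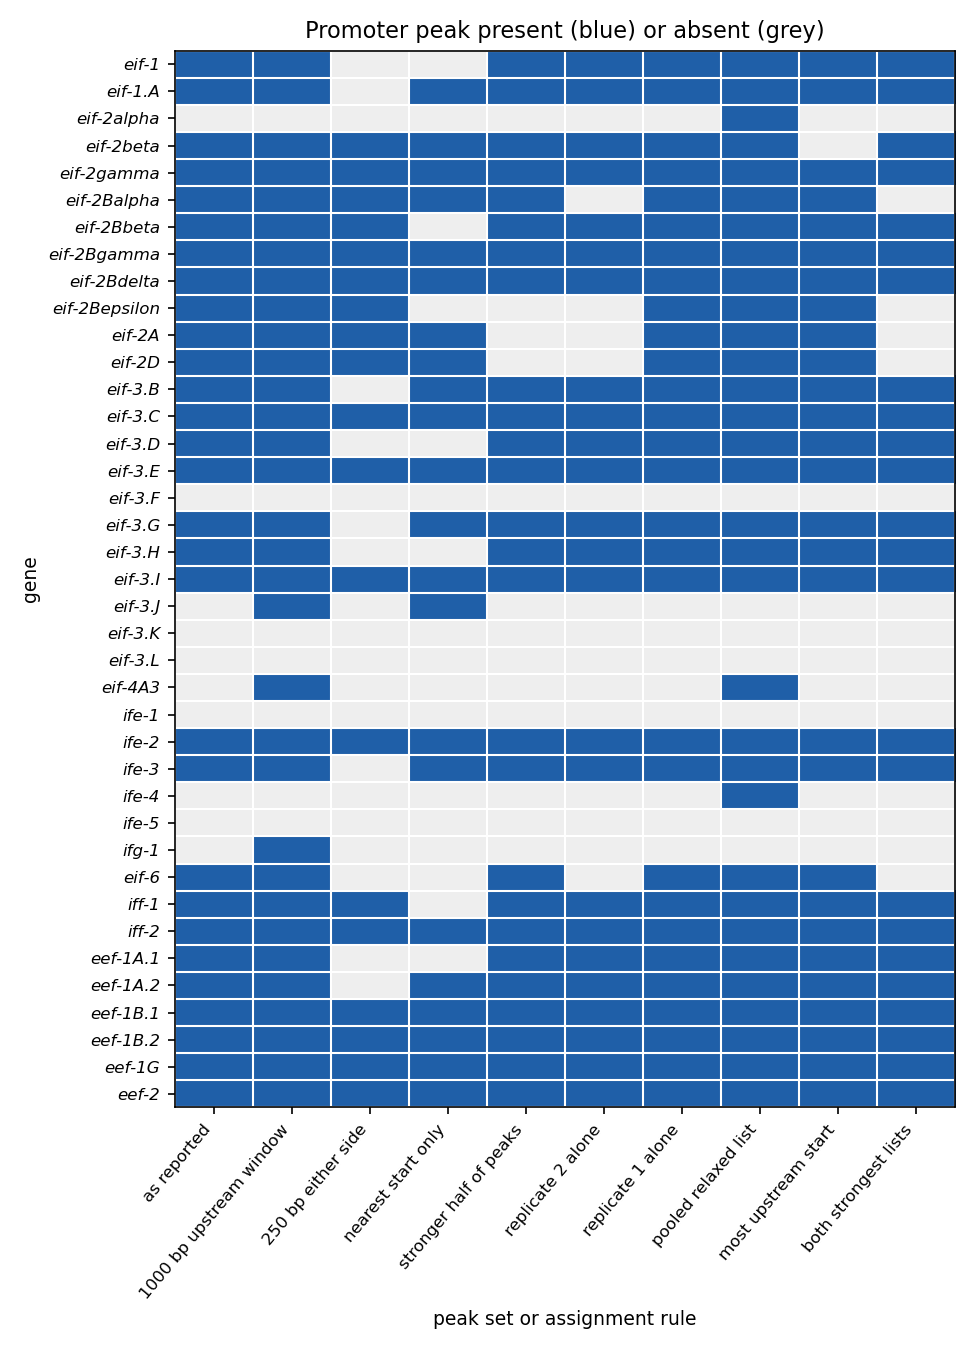
Presence (blue) or absence (grey) of a promoter peak at each of the 39 genes (rows) under the reported setting and 9 other peak sets or assignment rules (columns). The rows of eif-3.F, eif-3.K, eif-3.L, ife-1 and ife-5 are grey throughout, and 12 rows are blue throughout.

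Other genes of translation that carry different symbols were read from a fixed list of 26, chosen with earlier results of these data known, of which 24 were in the annotation. A reproducible promoter peak was found at 18 of the 24 (75%), again against 19.8% of all genes. Their median signal was 230.5. Among the 18, the summits at drr-2, iffb-1, erfa-1, tufm-2, tsfm-1, pab-1, gcn-2, ncbp-1 and clu-1 were shared with the promoter window of another protein-coding gene. For these, too, the lists cannot tell which gene the binding concerns. All 3 further core factor genes were bound. They were drr-2, for a factor related to eIF4H (signal 1017), inf-1, for the helicase eIF4A (227), and iffb-1, for eIF5B (76.7). The release factor genes erfa-1 (234) and erfa-3 (161) were bound and the recycling factor gene abce-1 was not. All 4 genes of mitochondrial elongation were bound, with 259 at tsfm-1, 198 at tufm-1, 186 at tufm-2 and 85.1 at gfm-1.

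Of 14 genes that control translation, 9 were bound, against 19.8% of all protein-coding genes. The strongest were gcn-1 (signal 1588, with 1446 and 143 in the replicates), whose yeast counterpart activates the eIF2 kinase Gcn2, daf-15 and gcn-2, the gene of that kinase (1435, with 1337 and 99.4). The gene daf-15, for the raptor partner of the TOR kinase, had 1544 (1440 and 106 in the replicates). The signal at each of these 3 was lower than at eef-1G and higher than at ife-3. The TOR kinase gene let-363 itself, the S6 kinase gene rsks-1, the eEF2 kinase gene efk-1, the eIF4E-binding repressor gene ifet-1 and larp-1 had no reproducible promoter peak. The poly(A)-binding protein genes pab-1 and pab-2 had 367 and 120, the cap-binding complex genes ncbp-2 and ncbp-1 had 425 and 156, clu-1 had 557, and the other eIF2 kinase gene, pek-1, had 84.2. The pek-1 summit lay 495 bp upstream, near the window edge. In the replicate lists its strongest summits lay 78 and 55 bp upstream.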

How the data were processed

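Peak lists of 2 replicate ChIP-seq samples were used, with groups and replicate numbers from the labels. Per the notes deposited with the files, the authors called a relaxed list for each replicate and for both pooled against a control alignment, and derived the reproducible list from these with a threshold on the irreproducible discovery rate. The aligner, caller and threshold were not given in the sources used here. Read depth is unknown, so no precision can be given for a peak. The deposited signal per peak was used within lists only. The deposited −log10 q-value was not used. The ce11 lists were joined to Ensembl release 115 (WBcel235, the same assembly), with 19973 nuclear protein-coding genes. Summits are the peak start plus the deposited offset. Where a window held several summits, the one with the highest signal was taken. The ce10 lists were not used. No test was made, since there is 1 group, and p-values are not given. Members, lists, words and alternatives were chosen with earlier results of these data known. By the rule for named genes, each bound member is given with values and each unbound one by name; sequences come from up to 8 members by signal whose peaks hold a word, none on chromosome I. Of 26 related symbols, iftb-1 and ppp-1 were not in the annotation under those names. One alternative, reproducible peaks that overlap the strongest peaks of each replicate, was chosen after seeing the data. Promoter assignment and word search were tested on simulated data. Python 3.11.15, numpy 2.4.6, pandas 2.3.3 and scipy 1.17.1 were used.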

Additional observations from a re-analysis of the deposited data

How the results depend on the processing

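Elongation factor genes kept at least 4 of 6 promoter peaks and related translation genes at least 12 of 24 under every alternative run. The 250 bp window lowered the members from 29 to 19 and the initiation factor genes from 23 to 15, because its upstream reach is shorter. The share of all protein-coding genes bound, 19.8%, fell to 12.7% with the 3356 strongest peaks and rose to 38.3% with the pooled relaxed list, by the length of those lists. The median distance of 173 bp was 208 bp in the 1000 bp window, with the 3356 strongest peaks and with reproducible peaks overlapping the strongest of each replicate (chosen after seeing the data), and 137 bp in the 250 bp window. With a single replicate it was 173 to 200.5 bp, and the members bound were 24 to 29. The cause of these shifts in distance was not tested. Within 150 bp of the summit, CHR-like words were at 20 members (69.0%) instead of 12, against 60.5% of all peaks, and GATA words at 8 (27.6%) instead of 1, against 36.2%, the window being wider. Bound members found in both replicate lists numbered 26, also by an overlap of 1 bp with a peak of each, and 20 by 50% reciprocal overlap. Of 351 calls of single members under alternatives, 39 differed from the reported one. The read depth behind the lists is unknown, so a missing peak was not detected here and is not shown to be absent. No paired analysis was possible because there is only 1 group.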
